A study of Mus musculus with 4 samples.

Results

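The *Sim1* glutamatergic nuclei were 333 of the 39176 nuclei kept in 4 libraries of the mouse hypothalamic arcuate nucleus (ARC), or 0.850%. They were chosen by their own counts of UMIs (unique molecular identifiers, which tell captured transcripts apart). A nucleus had to hold at least 2 UMIs of *Sim1* and at least 1 of *Slc17a6*, and *Oxt* and *Avp* together had to stay below 1% of its UMIs, which left out 23 nuclei. Each library is a pool of nuclei from 2 wildtype male C57BL/6J mice killed at 10 weeks of age. The mice of DOCA-salt 1 and DOCA-salt 2 had carried a deoxycorticosterone acetate (DOCA) pellet with a saline drink for 3 weeks, and those of Sham 1 and Sham 2 had undergone sham treatment for as long. Pools mix animals that cannot be told apart, and the dissection was by punch, so neighboring hypothalamic tissue can be included. In each library the *Sim1* nuclei were described against the other nuclei with a *Slc17a6* UMI and no *Sim1* UMI, 12132 in all, called other glutamatergic nuclei here. That name rests on as little as 1 *Slc17a6* UMI, so nuclei of neurons that use GABA can be among them.

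*Sim1* encodes a transcription factor of the bHLH-PAS family that forms dimers with ARNT2. It is required for the neurons of the paraventricular and supraoptic nuclei to form, in parallel with the homeodomain factor OTP and with POU3F2 downstream, and loss of *Sim1* function causes overeating and obesity. Neurons of this lineage use glutamate and make peptides that include thyrotropin-releasing hormone (TRH), corticotropin-releasing hormone, oxytocin and vasopressin.

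The *Sim1* nuclei numbered 13 and 203 in DOCA-salt 1 and 2 and 64 and 53 in Sham 1 and 2. DOCA-salt 2 therefore held 61.0% of them and DOCA-salt 1 only 3.90%. Total UMIs of the deposited libraries were 45126915, 79437196, 53257230 and 59293582 in this order. Pairs of libraries shared between 1 and 44 barcodes among their kept nuclei, at most 0.567% of the smaller library.

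Most *Sim1* nuclei sat at the edge of the rule. Of the 333, 225 had exactly 2 *Sim1* UMIs, 65 had 3, and the highest count was 9. Just outside, 903 *Slc17a6* nuclei under the same *Oxt* and *Avp* limit had exactly 1 *Sim1* UMI. Nuclei with many UMIs pass such a rule more easily, and the *Sim1* nuclei were deep. Their median UMI count was 6697 and 8353 in the DOCA-salt pools and 15247.5 and 10851 in the Sham pools, against 4265, 3972, 9270 and 6035 in the other glutamatergic nuclei.

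The name given to these nuclei was checked against *Otp* and *Ebf3*, which the rule did not use. *Otp* had a UMI in 82.3% of the *Sim1* nuclei of DOCA-salt 2 (exact 95% interval 76.3% to 87.3%), 75.0% in Sham 1 and 81.1% in Sham 2, but in 1 of 13 (7.69%) in DOCA-salt 1. The same shares in the other glutamatergic nuclei were 20.2%, 35.8%, 20.03% and 16.2%, and in oligodendrocyte nuclei, which should lack *Otp*, 5.42%, 12.5%, 6.19% and 2.04% at a median depth of between 988 and 3847 UMIs. Oligodendrocyte nuclei had at least 3 UMIs summed over *Mog*, *Mag* and *Mobp* and none of *Slc17a6*, *Gad1* or *Gad2*. After every nucleus was thinned to 2000 UMIs, *Otp* was found in 49.5%, 25.0% and 34.6% of the *Sim1* nuclei of the former 3 libraries and in none of DOCA-salt 1, against between 7.48% and 11.3% of the other glutamatergic nuclei. Nuclei that deep with the same myelin genes and no UMI of the neuronal genes *Syt1* and *Snap25*, a gate chosen after the data were seen, held *Otp* in 12.5%, 17.6% and 9.09% of 8, 17 and 33 nuclei (DOCA-salt 1, DOCA-salt 2, Sham 2; none that deep in Sham 1), too few to order against the other populations. Intervals of this kind cover counting error only.

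*Ebf3*, a helix-loop-helix factor, was sparse. It had a UMI in 3 of 13, 30 of 203, 6 of 64 and 2 of 53 *Sim1* nuclei (DOCA-salt 1, DOCA-salt 2, Sham 1, Sham 2), 41 in all. Only 15 nuclei had *Ebf3* and no *Otp*, 233 had *Otp* and no *Ebf3*, 26 had both and 59 neither. *Otp* thus marked most *Sim1* nuclei in 3 libraries, while *Ebf3* marked few in any.

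Beside *Otp*, the 13 *Sim1* nuclei of DOCA-salt 1 stood apart from those of the other libraries in genes picked by their values, so no test was made. *Foxb1*, a forkhead factor of the developing mammillary region, was at 164 CPM in them (CPM, UMIs of the gene per 1000000 UMIs of those nuclei), against 2.01 in DOCA-salt 2 and 13.8 and 3.12 in the Sham pools, and had a UMI in 9 of the 13. The LIM factor *Lhx1* was at 82.0 CPM against 7.04, 10.6 and 1.56, and the peptide gene *Cck* at 131 CPM against 9.05, 8.51 and 10.9. *Hdc*, which encodes the enzyme that makes histamine, reached 123 CPM there, but only 2 nuclei held it.

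Some genes that were abundant in the other *Sim1* nuclei were missing or scarce in them, while *Zfhx3* (238 CPM), *Nrn1* (73.8 CPM) and *Uncx* (57.4 CPM) were present. *Zic1*, picked by its value as well, had no UMI in DOCA-salt 1, where a count of 0 allows up to 24.6 CPM, and *Trh* was at 24.6 CPM from 2 nuclei. In the other glutamatergic nuclei of DOCA-salt 1 *Zic1* and *Trh* were low too, at 11.2 and 15.2 CPM. Both values lay below those of such nuclei in each other library. *Fezf1* had no UMI there either, which does not resolve it from its 18.7 CPM in Sham 2. Of the named genes called below between *Sim1* and other glutamatergic nuclei, 6 lost the call without this library, *Ebf3*, *Foxb1*, *Hcrtr2*, *Slit3*, *Cadps2* and the noncoding *A430105J06Rik*. Of the *Sim1* nuclei 7.69%, 32.5%, 4.69% and 11.3% scored among the likely doublets (droplets with more than 1 nucleus) in DOCA-salt 1, DOCA-salt 2, Sham 1 and Sham 2. In the same order these shares were 13.5%, 24.8%, 1.70% and 10.1% for the other glutamatergic nuclei, and 29.9%, 50.4%, 3.18% and 20.3% for those of them deeper than the median *Sim1* nucleus of their library. The number marked was set by a doublet rate assumed from the nuclei of a library (8.25%, 15.1%, 1.76% and 6.21% in this order), while the automatic threshold marked 0, 0, 2 and 4 nuclei, so the order of the libraries is largely that of the assumed rate.

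To describe what else the *Sim1* nuclei share, UMI counts were summed over nuclei within each library, and *Sim1* nuclei were compared with the other glutamatergic nuclei of the same library by the quasi-likelihood test of edgeR, with the library as a block. Of 14576 genes tested, 395 (2.71%) passed an adjusted p (Benjamini-Hochberg) of 0.05, 181 (1.24%) higher and 214 (1.47%) lower in *Sim1* nuclei. Of these, 279 (1.91% of genes tested) had the same sign in all 4 libraries. *Sim1*, *Slc17a6*, *Oxt* and *Avp* were used by the rule and have no test. Without the block the test called 4 genes, and with nuclei thinned to 2000 UMIs 69. Leaving out DOCA-salt 2, which held most *Sim1* nuclei, gave 178 genes and leaving out Sham 1 gave 251.

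Of the genes called with the same sign in all 4 libraries the largest rise was that of *Trh*, which encodes the precursor of thyrotropin-releasing hormone. *Trh* was at 24.6, 1138, 645 and 1009 CPM in the *Sim1* nuclei of DOCA-salt 1, DOCA-salt 2, Sham 1 and Sham 2, and at 15.2, 192, 99.5 and 73.6 CPM in the other glutamatergic nuclei. In 3 libraries *Trh* was far above its level in the other nuclei, and in DOCA-salt 1, where 3 UMIs from 2 nuclei put it at the floor of 24.6 CPM, no difference was resolved. The log2 fold change was 2.93 ± 0.12 (SE, 4 libraries, adjusted p = 1.2e-34), a 7.64-fold higher level. It was 2.98 without DOCA-salt 1 and 3.13 among nuclei of 3000 to 15000 UMIs.

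*Trh* was found in most *Sim1* nuclei outside DOCA-salt 1. It had a UMI in 143 of 203, 47 of 64 and 47 of 53 nuclei of DOCA-salt 2, Sham 1 and Sham 2, and single nuclei reached 107, 70 and 48 UMIs. Shares in the other glutamatergic nuclei were 20.98%, 43.4% and 20.4%, and in oligodendrocyte nuclei 6.94%, 12.5% and 8.10%, so *Trh* UMIs were also found in nuclei that should not make the peptide. *Otp* and *Trh* were found together in 124, 38 and 39 *Sim1* nuclei of these libraries and in no nucleus of DOCA-salt 1.

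The gene lies on the minus strand of chromosome 6 at chr6:92242061-92244650 (GRCm38, GENCODE M21; identifier ENSMUSG00000005892). The 250 bases before its start, chr6:92244651-92244900, are given here from RefSeq (GRCm38.p6), since *Trh* was the leading gene of the *Sim1* nuclei and its promoter has been studied for control by thyroid hormone. Capitals mark TGACCTCA, a stretch described there as a site for thyroid hormone receptors and CREB, searched on both strands. It was found once, 57 bases before the start. Of all 32851 promoter windows of this length, 1.94% hold it, and its presence is a description of the sequence and not of binding in these nuclei.
Trh promoter: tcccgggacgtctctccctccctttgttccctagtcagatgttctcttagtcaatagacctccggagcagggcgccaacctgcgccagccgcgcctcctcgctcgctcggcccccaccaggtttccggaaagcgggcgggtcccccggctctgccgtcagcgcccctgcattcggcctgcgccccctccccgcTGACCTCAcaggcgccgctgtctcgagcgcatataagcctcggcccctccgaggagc

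Other genes that rose with the same sign in all 4 libraries were led by *Nrn1*, which encodes neuritin, a membrane-anchored protein that promotes neurite growth. *Nrn1* was at 73.8, 187, 117 and 81.2 CPM in *Sim1* nuclei and at 19.0, 37.0, 23.7 and 14.1 CPM in the other glutamatergic nuclei, with a log2 fold change of 2.34 ± 0.12 (adjusted p = 1.6e-27). The homeodomain gene *Uncx* was at 57.4, 26.6, 39.4 and 20.3 CPM against 10.9, 5.85, 8.85 and 2.26 CPM, with a log2 fold change of 2.33 ± 0.23 (adjusted p = 1.9e-12). For *Nrn1* and *Uncx* each of the 4 *Sim1* values lay above all 4 values of the other nuclei, DOCA-salt 1 included. *Nxph4*, a neurexophilin secreted at synapses, had a log2 fold change of 2.11 ± 0.30 and *Mdga1*, a surface protein that binds neuroligins, one of 1.83 ± 0.17. *Sall3* (1.88 ± 0.29), *Onecut2* (1.58 ± 0.12) and *Ebf1* (1.71 ± 0.18), which encode transcription factors, also rose, as did *Syt2*, a calcium sensor of fast transmitter release (1.61 ± 0.14). In DOCA-salt 1 *Sall3*, *Onecut2* and *Ebf1* had 1 UMI each (8.20 CPM) and *Syt2* had 2 (16.4 CPM), which resolve no difference there, so their rise rests on the other 3 libraries.

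**Figure D1:**
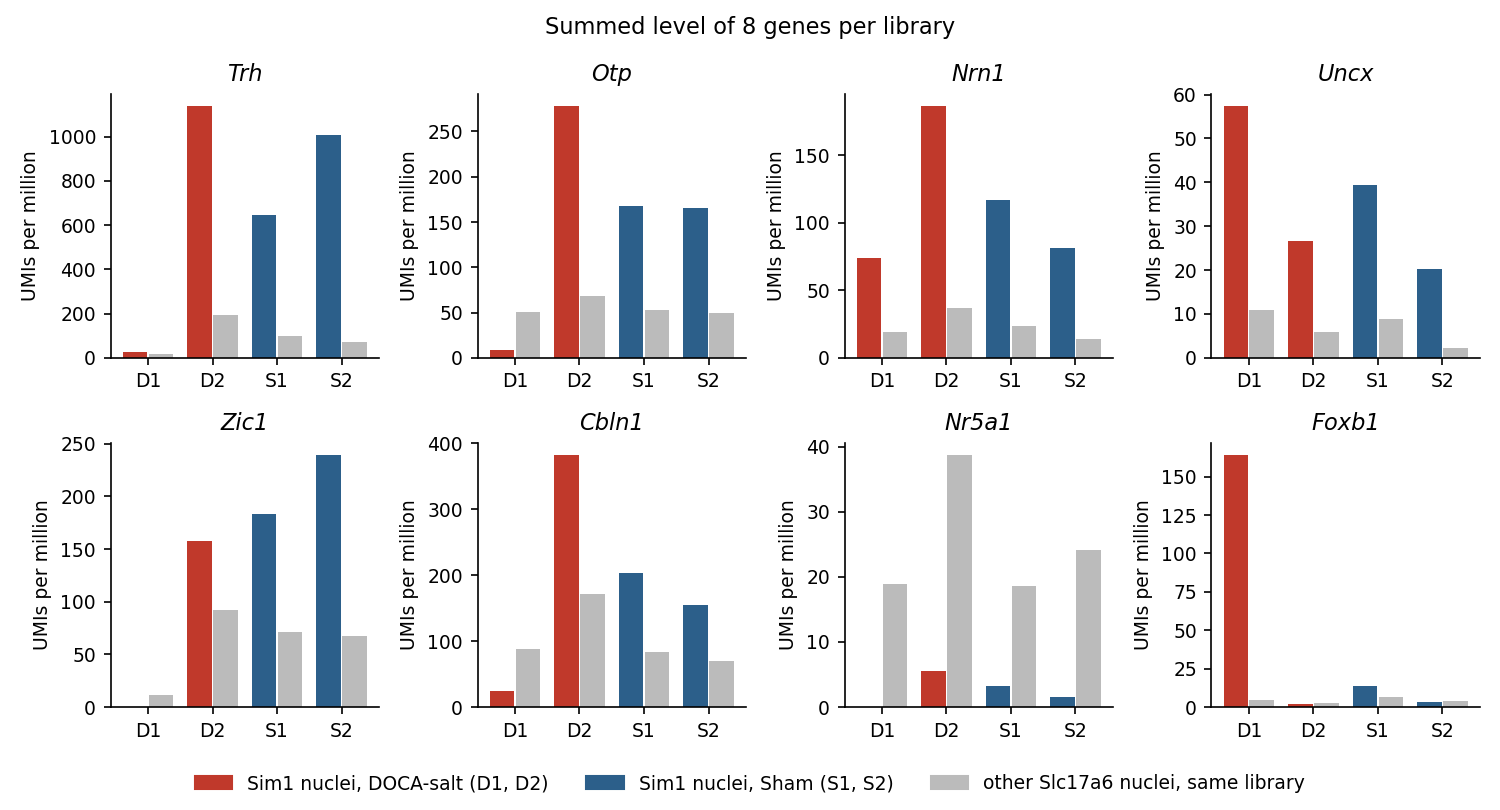
Summed level of 8 genes in CPM (vertical axes, linear) in the *Sim1* nuclei (red, DOCA-salt; blue, Sham) and the other glutamatergic nuclei (gray) of each library (D1, DOCA-salt 1; D2, DOCA-salt 2; S1, Sham 1; S2, Sham 2). *Trh* reached 1138 in D2 and only 24.6 in D1, *Nrn1* and *Uncx* were higher in the *Sim1* nuclei of all 4 libraries, *Nr5a1* was lower in D2, S1 and S2 and had no UMI in D1, and *Foxb1* was at 164 in the *Sim1* nuclei of D1 and at most 13.8 in those of the others.

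Of the 10 lineage regulators listed for *Sim1* neurons, all passed the filter of low counts, 6 rose, none fell and 4 did not pass the test. The share called was 60%, against 2.71% of all genes tested, and the median log2 fold change 0.93, against -0.01. *Otp* was at 8.20, 278, 168 and 166 CPM in *Sim1* nuclei and at 50.7, 68.7, 52.8 and 49.9 CPM in the others. In DOCA-salt 1 it was lower in *Sim1* nuclei and in the other libraries higher, with a log2 fold change of 1.73 ± 0.12 (adjusted p = 4.9e-20). DESeq2 did not call it (adjusted p = 0.9998). Among the named genes DESeq2 kept 19 calls and lost 64. *Pou3f2*, which acts downstream of *Sim1*, was at 32.8, 67.4, 106 and 114 CPM against 27.7, 37.9, 38.7 and 34.0 CPM (log2 fold change 1.24 ± 0.13). It was higher in DOCA-salt 2 and both Sham pools, while in DOCA-salt 1, near the floor of 24.6 CPM, no difference was resolved.

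*Ebf3* rose by 1.19 ± 0.33 on the log2 scale (adjusted p = 0.0228), but the call was lost without DOCA-salt 1 (0.92, adjusted p = 0.0668) and without Sham 1 (0.95, adjusted p = 0.206). *Zfhx3* (0.34 ± 0.09) and *Zfhx4* (0.39 ± 0.10), homeobox factors of many neurons, made up the remaining calls. The dimer partner *Arnt2* was at 139, 111, 86.2 and 109 CPM against 77.6, 103, 85.2 and 80.0 CPM and did not pass the test (0.21 ± 0.11, adjusted p = 0.455). *Sim2*, the paralog of *Sim1*, had a UMI in 14 of the 333 nuclei and an adjusted p of 0.0529.

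Of 36 regulators of other hypothalamic regions 35 were tested, 8 fell, 2 rose and 25 did not pass (28.6% called, against 2.71% of all genes), with a median log2 fold change of -0.57. *Nr5a1*, which encodes SF-1 and marks the ventromedial nucleus, was at 0, 5.53, 3.19 and 1.56 CPM in *Sim1* nuclei against 18.8, 38.7, 18.6 and 24.1 CPM. It was lower in DOCA-salt 2 and both Sham pools, while the 0 of DOCA-salt 1 allows up to 24.6 CPM and resolves no difference. Its log2 fold change was -2.90 ± 0.29 (adjusted p = 2.5e-12). *Sox14* (-2.19 ± 0.44), *Six6* (-1.13 ± 0.30), *Isl1* (-0.91 ± 0.15), *Tbx3* (-0.87 ± 0.24) and *Nkx2-1* (-0.81 ± 0.18), factors of the tuberal hypothalamus, also fell, as did *Prox1* (-0.64) and *Dlx1* (-0.57), the latter a factor of GABAergic neurons.

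The 2 regional factors that rose differed in DOCA-salt 1, while both were higher in Sham 1 (*Foxb1* at 13.8 against 6.62 CPM). *Zic1*, a zinc finger factor, was at 0, 158, 183 and 239 CPM in *Sim1* nuclei against 11.2, 92.3, 71.4 and 67.5 CPM (log2 fold change 1.24 ± 0.11, adjusted p = 5.3e-14), higher in every library but DOCA-salt 1, where its 0 UMIs resolve no difference. The rise of *Foxb1* (1.64 ± 0.43, adjusted p = 0.0171) rested on DOCA-salt 1, since without that library it was 0.38 with an adjusted p of 0.773. *Fezf1*, a zinc finger factor of the ventromedial nucleus, did not pass the test (0.15 ± 0.16). It was at 0, 88.0, 50.0 and 18.7 CPM in *Sim1* nuclei against 39.7, 68.8, 31.2 and 43.8 CPM, higher in DOCA-salt 2 and Sham 1 and lower in DOCA-salt 1 and Sham 2.

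Genes with next to no UMIs in *Sim1* nuclei were *Prlh* and *Hpgd*, which encode prolactin-releasing hormone and an enzyme that degrades prostaglandins. Neither had a UMI among the 3691221 UMIs of all *Sim1* nuclei. In the other glutamatergic nuclei *Prlh* was at 10.4, 0.148, 0.520 and 9.77 CPM and *Hpgd* at 3.44, 2.04, 3.05 and 2.58 CPM. A count of 0 in *Sim1* nuclei allows up to 24.6, 1.51, 3.19 and 4.69 CPM in these libraries, so that *Prlh* was resolved as lower in Sham 2 alone and *Hpgd* in DOCA-salt 2 alone, and no fold is given. *Gnrh1*, the gene of gonadotropin-releasing hormone, had 1 UMI in *Sim1* nuclei and 865 in the others, where Sham 2 stood out at 35.4 CPM against 0.859, 0.999 and 2.97 CPM. By the same limits the fall of *Gnrh1* was resolved in Sham 2 alone. *Nr5a2*, a nuclear receptor related to SF-1 (-2.14 ± 0.60), *Crym*, which encodes a thyroid hormone binding protein (-2.45 ± 0.51), and the transcripts *Nr5a1os* and *D430036J16Rik*, with 2 and 3 UMIs in *Sim1* nuclei, fell as well. Their levels per library are not given here, so a fall in each library is not claimed.

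**Figure D2:**
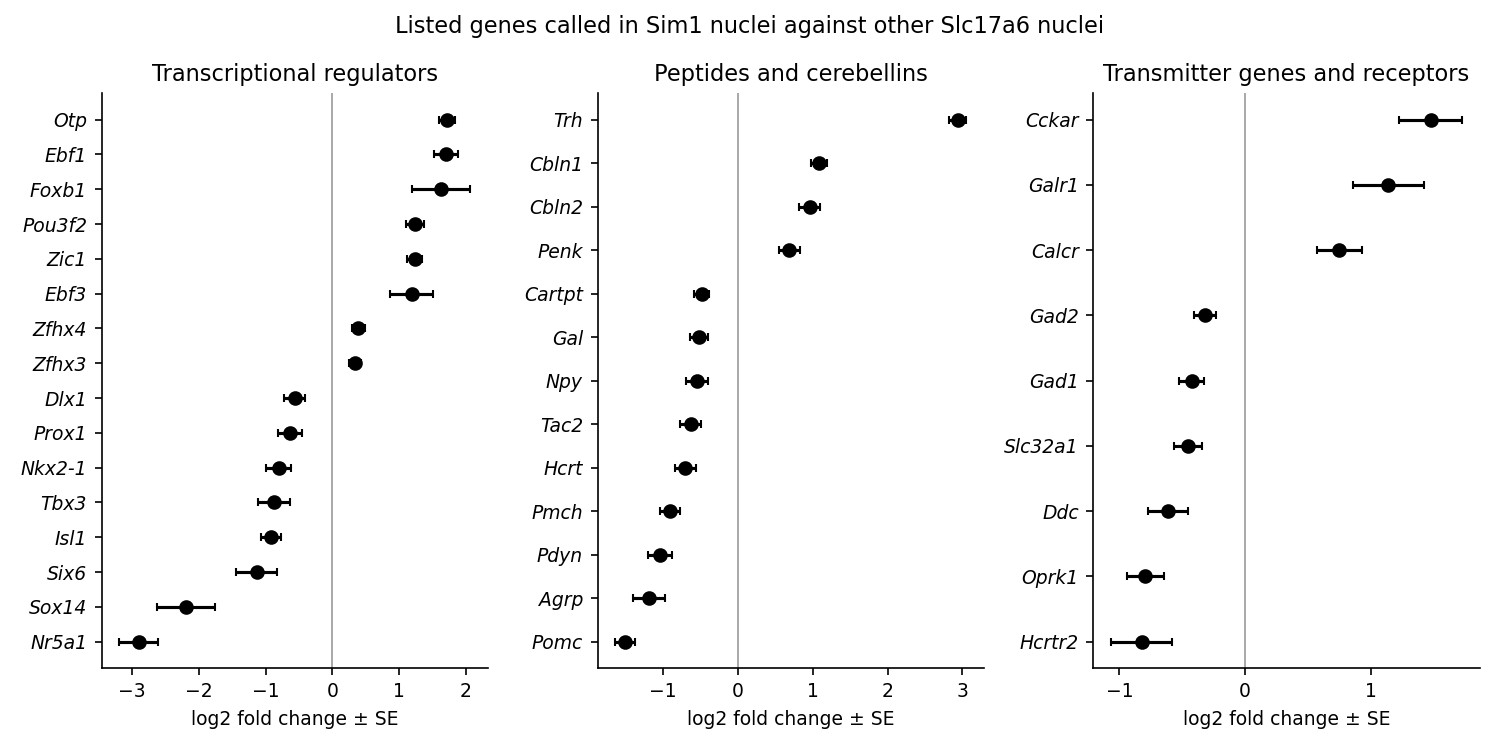
Log2 fold change (points) ± SE (bars) of *Sim1* nuclei over other glutamatergic nuclei (horizontal axes) for the listed regulators, peptides and cerebellins, and transmitter genes and receptors that passed an adjusted p of 0.05. *Trh* had the largest rise (2.93) and *Nr5a1* the largest fall (-2.90) of the genes drawn, and 9 of the 13 peptide genes called were lower.

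Of 28 peptide and related genes 27 were tested, 4 rose, 9 fell and 14 did not pass (48.15% called, against 2.71% of all genes), with a median log2 fold change of -0.44. Beside *Trh*, *Penk*, the precursor of enkephalins, rose (0.68 ± 0.14), as did *Cbln1* (1.09 ± 0.11) and *Cbln2* (0.96 ± 0.14), which encode secreted organizers of synapses. *Cbln1* was at 24.6, 382, 203 and 155 CPM in *Sim1* nuclei against 88.6, 171, 83.3 and 69.4 CPM. As with *Otp*, DOCA-salt 1 was the library where the order was turned.

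The 9 peptide genes that fell were led by *Pomc*. *Pomc*, the precursor of melanocortins, was at 16.4, 16.1, 95.8 and 123 CPM against 408, 50.9, 209 and 323 CPM (log2 fold change -1.51 ± 0.13, adjusted p = 2.4e-15), lower in every library. *Agrp* (-1.19 ± 0.21), *Pdyn* (-1.05 ± 0.16), *Tac2* (-0.63 ± 0.14), *Npy* (-0.54 ± 0.15), *Gal* (-0.53 ± 0.12) and *Cartpt* (-0.48 ± 0.10) fell too. So did *Pmch* (-0.91 ± 0.13) and *Hcrt* (-0.71 ± 0.14), the peptide genes of the lateral hypothalamus, both of which were abundant in DOCA-salt 2 alone (2044 and 700 CPM in its *Sim1* nuclei). A single nucleus there held 1831 of the 4066 *Pmch* UMIs, and a single nucleus held 829 of the 1393 *Hcrt* UMIs. The direction of *Hcrt* turned with 1 or more *Sim1* UMIs.

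*Crh*, the peptide of the stress axis, was near the limit of detection. It had a UMI in 0, 7, 7 and 3 *Sim1* nuclei and did not pass the test (0.48 ± 0.35, adjusted p = 0.702). *Sst* was at 65.6, 284, 216 and 220 CPM against 236, 235, 162 and 223 CPM and *Adcyap1* at 90.1, 107, 87.2 and 45.3 CPM against 90.7, 72.0, 63.2 and 58.9 CPM. Neither passed the test. *Oxt* and *Avp*, which the rule limits in *Sim1* nuclei and not in the others, were at 0, 146, 79.8 and 68.7 CPM and at 0, 196, 36.2 and 57.8 CPM in *Sim1* nuclei.

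UMIs of GABAergic genes were common in *Sim1* nuclei although they were chosen for a glutamate transporter. *Gad2*, a GABA synthesizing enzyme, had a UMI in 69.2%, 71.4%, 90.6% and 79.2% of them, against 47.9%, 55.1%, 89.6% and 69.8% of the other glutamatergic nuclei. The first oligodendrocyte gate bars *Gad2*, so the nuclei without *Syt1* and *Snap25* were used here. Their shares were 21.4%, 23.4%, 33.3% and 25.0% of 70, 274, 3 and 124 nuclei. At 2000 UMIs per nucleus *Gad2* was found in 30.8%, 36.0%, 39.1% and 53.8% of the *Sim1* nuclei and in 32.1%, 42.2%, 58.4% and 49.6% of the other glutamatergic nuclei. In the oligodendrocyte nuclei that deep it was found in 25.0%, 47.1% and 36.4% of 8, 17 and 33 nuclei (DOCA-salt 1, DOCA-salt 2, Sham 2). The *Gad2* share of *Sim1* nuclei is therefore not read as expression, and the part of free RNA in it was not tested.

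By summed level the GABAergic genes were lower. *Gad1* (-0.43 ± 0.10), *Gad2* (-0.32 ± 0.09) and the vesicular transporter *Slc32a1* (-0.45 ± 0.11) fell in all 4 libraries. The other glutamatergic nuclei can include GABAergic ones with a single *Slc17a6* UMI, and their part in these falls was not tested. Of 16 transmitter genes 13 were tested, and these 3 and *Ddc* (-0.61), an enzyme of monoamine synthesis, were the 4 that fell (30.8% called, against 2.71% of all genes), while none rose. *Nos1*, which makes nitric oxide, was at 90.1, 23.1, 70.2 and 60.9 CPM against 53.7, 32.6, 57.6 and 54.9 CPM and did not pass the test.

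Markers of other cell types were found in *Sim1* nuclei too. All 8 oligodendrocyte markers were present in each library, with a summed level of 1795, 1715, 2474 and 3082 CPM in *Sim1* nuclei and 655, 1679, 2921 and 2414 CPM in the other glutamatergic nuclei, and none of the 8 passed the test. In DOCA-salt 1 this level was higher in *Sim1* nuclei, and so was that of the 8 astrocyte markers (2082 against 1128 CPM, led by *Slc1a2*), of which none was called. Of 7 microglial markers none was called, and of 6 vascular markers *Flt1* and *Rgs5* were lower (33.3% called, against 2.71% of all genes, as for the next lists). Of 4 markers of oligodendrocyte precursors *Vcan* fell (25%) and of 7 of tanycytes and ependyma *Col23a1* and *Crym* (28.6%). Of 7 striatal markers *Drd2* was higher (1.05; 14.3% called), while *Adora2a* had no UMI in *Sim1* nuclei.

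Of 18 receptors of energy balance 17 were tested, 2 rose, 1 fell and 14 did not pass (17.65% called, against 2.71% of all genes). *Cckar*, the receptor for cholecystokinin of the gut, was at 0, 21.6, 19.2 and 26.6 CPM in *Sim1* nuclei against 3.38, 8.14, 6.32 and 8.64 CPM, higher in the 3 libraries that had any (log2 fold change 1.47 ± 0.25, adjusted p = 2.3e-05). *Calcr*, the calcitonin receptor, rose as well (0.75 ± 0.18), with no UMI in DOCA-salt 1, and the orexin receptor *Hcrtr2* fell (-0.82 ± 0.24; -0.75 with an adjusted p of 0.0734 without DOCA-salt 1). *Mc4r*, the melanocortin receptor through which *Sim1* neurons are known to act on feeding, had a UMI in 0, 11, 3 and 1 *Sim1* nuclei and did not pass the test (0.09 ± 0.43).

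Among 18 receptors of stress and water balance 17 were tested and 2 were called (11.8%, against 2.71% of all genes). The galanin receptor *Galr1* rose at 32.8, 12.1, 19.2 and 18.7 CPM against 3.72, 7.62, 8.55 and 6.79 CPM (1.14 ± 0.28), and the kappa opioid receptor *Oprk1* fell (-0.79 ± 0.14). The glucocorticoid receptor *Nr3c1* fell, with 90.1, 63.3, 91.5 and 79.7 CPM against 101, 88.8, 119 and 134 CPM (-0.51 ± 0.11, adjusted p = 0.00177). In DOCA-salt 1 these values are too close at its depth to resolve a difference. It was the only call of 12 steroid receptors and targets tested (8.33%, against 2.71% of all genes). *Nr3c2*, the mineralocorticoid receptor to which DOCA binds, was at 16.4, 11.6, 24.5 and 18.7 CPM against 15.4, 10.95, 20.1 and 15.2 CPM and did not pass the test (0.19 ± 0.22).

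No renin-angiotensin gene was called among 6 tested of 10, and *Agtr1b*, *Ren1* and *Mas1* had no UMI in the *Sim1* nuclei of any library. Of 25 genes of salt and chloride handling 22 were tested and 21 did not pass (4.5% called, against 2.71% of all genes). None of 13 immediate early genes passed.

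Genes of excitability split in both directions. Of 21 glutamate receptor genes 3 rose, among them *Grik1* (0.61) and *Grid1* (0.55), and 2 fell (*Grik3*, -0.80; *Gria1*, -0.35), or 23.8% called, against 2.71% of all genes. Of 16 GABA receptor genes 25% were called, against the same 2.71%, of which 1 rose and 3 fell, among them *Gabra5* (-0.76 ± 0.14) and *Gabrq* (-0.71 ± 0.12). Of 31 voltage-gated channel genes 25.8% were called, again against 2.71%, of which 4 rose, among them the sodium channel *Scn1a* (0.55 ± 0.09) and the pacemaker channel *Hcn2* (0.52), and 4 fell, among them the calcium channels *Cacna1h* (-0.60) and *Cacna1e* (-0.37).

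Of 50 tested genes of guidance and adhesion 4 were called, with *Unc5c* (0.35) and *Cntnap4* (0.44) higher and *Ntng1* (-0.52) and *Slit3* (-0.87; -0.80 with an adjusted p of 0.0616 without DOCA-salt 1) lower. Of 14 genes of the secretory granule the prohormone convertase *Pcsk2* rose (0.44 ± 0.09), while *Vgf* (-0.37), *Cadps2* (-0.41; -0.34 with an adjusted p of 0.0533 without DOCA-salt 1) and *Pam* (-0.45), the enzyme that amidates peptides such as TRH, fell. The share called was 8% of the former list and 28.6% of the latter, against 2.71% of all genes.

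The level of the leading genes was also followed over the number of *Sim1* UMIs, among nuclei under the *Oxt* and *Avp* limit. *Trh* in DOCA-salt 2 was at 193, 710, 922 and 1550 CPM in nuclei with 0, 1, 2 and 3 or more *Sim1* UMIs, in Sham 1 at 99.6, 265, 609 and 691 CPM, and in Sham 2 at 73.3, 543, 1022 and 983 CPM. Nuclei with 1 *Sim1* UMI, outside the rule, thus lay between the other glutamatergic nuclei and the *Sim1* nuclei in these 3 libraries. In DOCA-salt 1 *Trh* was at 15.2, 46.7, 61 and 0 CPM, with only 7 and 6 nuclei at 2 and at 3 or more *Sim1* UMIs. *Nr5a1* was at 38.9, 12.9, 5.36 and 5.85 CPM in DOCA-salt 2, at 18.6, 14.0, 0 and 7.32 CPM in Sham 1 and at 24.1, 9.36, 2.34 and 0 CPM in Sham 2. It was lower with 2 and with 3 or more *Sim1* UMIs than with none in these libraries, though not at every step. The median depth of nuclei with 1 *Sim1* UMI, at 5281.5, 5984.5, 11346 and 8703 UMIs, lay between as well, and no test was made.

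**Figure D3:**
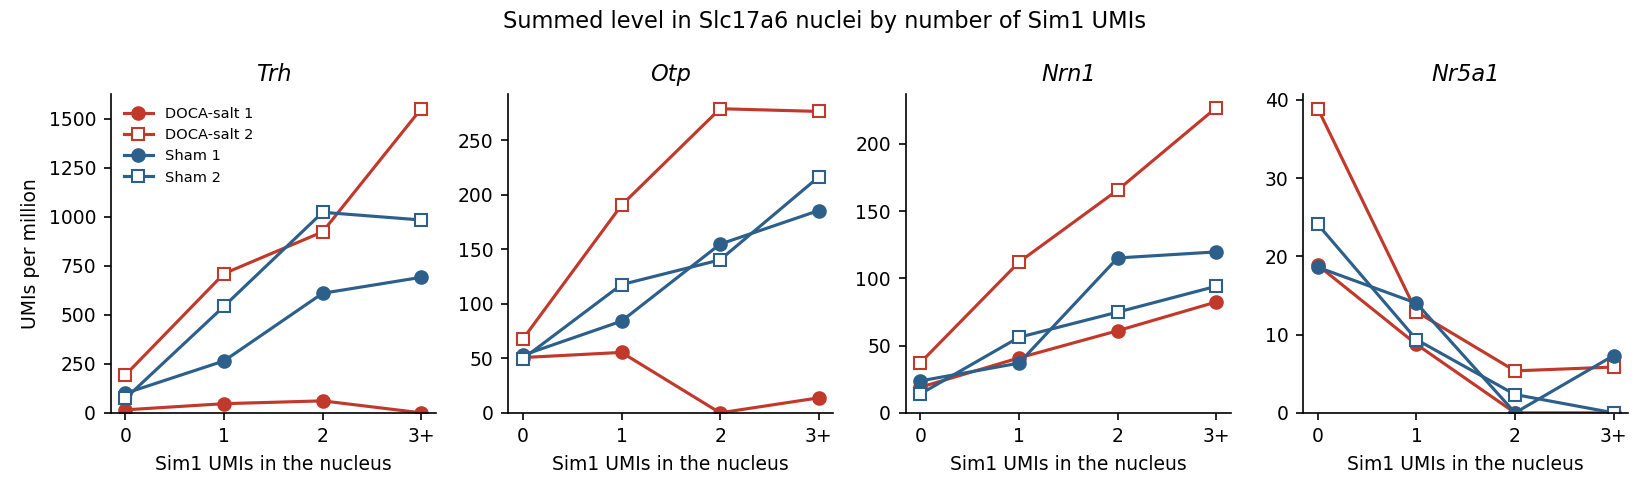
Summed level in CPM (vertical axes) of 4 genes in *Slc17a6* nuclei with 0, 1, 2 and 3 or more *Sim1* UMIs (horizontal axes), 1 line per library (red, DOCA-salt; blue, Sham; filled circles, pool 1; open squares, pool 2). In DOCA-salt 2 and both Sham libraries *Trh* and *Otp* were higher at 2 and at 3 or more *Sim1* UMIs than at 0, and *Nr5a1* was lower.

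The *Sim1* nuclei differed between libraries, with the 13 nuclei of DOCA-salt 1 apart, and DOCA-salt 2 held a further group with *Pvalb*, which encodes the calcium buffer parvalbumin. *Pvalb* had a UMI in 60 of its 203 *Sim1* nuclei, against 6 of 64 in Sham 1, 2 of 53 in Sham 2 and 0 of 13 in DOCA-salt 1. In 45 nuclei of DOCA-salt 2 it had 2 or more UMIs, and these were described against the 143 of the same library with none. Both groups were chosen after the values were seen, so no test was made. The nuclei with *Pvalb* were deeper (median 10714 UMIs against 6639) and held fewer likely doublets (6.67% against 41.3%).

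Genes picked from those most unequal between the groups, by their values, included *Syt2*, *Scn4b*, *Nefm* and *Calb2*, and also *Npvf* and *Calca*, which encode the peptides RFRP and CGRP. *Syt2* was at 281 CPM against 48.9 CPM, the sodium channel subunit *Scn4b* at 51.7 against 3.88, and the neurofilament *Nefm* at 384 against 75.2 CPM. *Calb2*, the gene of calretinin, was at 2192 CPM against 453, and *Syt2* had a UMI in 41 of the 45 nuclei against 33 of the 143. *Npvf* was at 77.6 against 3.88 CPM, from 3 of the 45 nuclei, and *Calca* at 97.9 against 19.4 CPM. *Trh* was at 1900 CPM against 651, *Otp* at 290 against 261 and *Cbln1* at 667 against 235 CPM, while *Zic1* was at 115 against 190 CPM. *Ebf3* was at 7.39 CPM against 31.0 and *Ebf1* at 12.9 against 52.7, while *Sim1* itself, which the rule used, was at 242 and 249 CPM.

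*Sim1* nuclei with *Otp* were also set against those without, again as a description. DOCA-salt 1 held only 1 nucleus with *Otp*, with no UMI of *Trh* or *Zic1*, while its other 12 had *Trh* at 25.9 CPM and no *Zic1*. *Trh* was at 1219, 706 and 1095 CPM in nuclei with an *Otp* UMI and at 590, 372 and 567 CPM in those without (DOCA-salt 2, Sham 1, Sham 2). *Zic1* was at 166, 204 and 265 CPM against 102, 87.2 and 106 CPM. Both genes were higher with *Otp* in these 3 libraries. Nuclei with *Foxb1* and no *Otp* were found in DOCA-salt 1 (8) and Sham 1 (6) and in neither of the other libraries.

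Whether the treatment changed how many *Sim1* nuclei were recovered was asked from their share per library. They were 0.126% (exact 95% interval 0.0672% to 0.216%) and 1.07% (0.932% to 1.23%) of kept nuclei in DOCA-salt 1 and 2. In Sham 1 and 2 they were 2.91% (2.24% to 3.69%) and 0.683% (0.512% to 0.893%). The DOCA-salt values lay on both sides of Sham 2, so the treatments overlapped. The mean was 0.600% ± 0.670 (SD, n = 2) for DOCA-salt and 1.79% ± 1.57 (SD, n = 2) for Sham, and the two-sided exact permutation test gave p = 0.667, where 0.333 is the smallest p that 2 pools against 2 allow.

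The depth of the libraries differed. The median UMI count of kept nuclei was 2401 and 2534 in the DOCA-salt libraries and 8215 and 3278 in Sham 1 and Sham 2, and Sham 1 was highest in both measures. When each nucleus was thinned to 2000 UMIs before the rule was applied, 2 of 5900, 18 of 11408, 3 of 2146 and 4 of 5106 nuclei passed, or 0.0339%, 0.158%, 0.140% and 0.0783%. The difference of the means fell from -1.19 to -0.0132 percentage points (exact permutation p = 1). In DOCA-salt 1 and Sham 2 the share was lower than in the other library of the same treatment both before and after thinning.

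**Figure D4:**
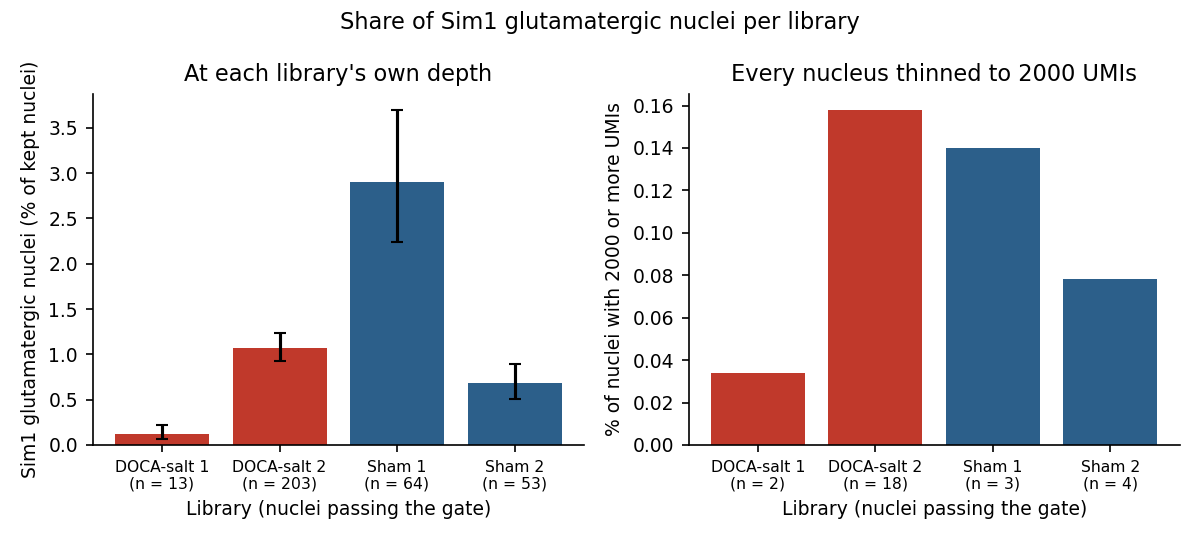
Share of *Sim1* glutamatergic nuclei in percent of kept nuclei per library with exact 95% intervals (left) and after every nucleus was thinned to 2000 UMIs, in percent of nuclei at least that deep (right). Red bars are DOCA-salt and blue bars Sham, n gives the nuclei passing the rule, and the 2.91% of Sham 1 on the left became 0.140% on the right, below the 0.158% of DOCA-salt 2.

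Within *Sim1* nuclei DOCA-salt was compared with Sham on counts summed per pool. Of 9776 genes tested 7 (0.0716%) passed, 3 (0.0307%) higher and 4 (0.0409%) lower in DOCA-salt, and 1064 had an unadjusted p under 0.05. Pools of the 2 treatments did not overlap for 39.0% of all genes. Of the 7, *Slc24a5* was higher and *Bc1*, *Pomc* and *mt-Atp8* were lower with no overlap of pools. *Vip* was also lower, but its 0 UMIs in DOCA-salt 1 allow up to 24.6 CPM, above the 21.9 CPM of Sham 2. *Pvalb* and *Pmch* were the other two and were high in DOCA-salt 2 alone.

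The call of lowest p was *Bc1*, a short noncoding RNA of neurons. It was at 303 and 289 CPM in DOCA-salt and 2166 and 3377 CPM in Sham (log2 fold change -3.27 ± 0.28, adjusted p = 2.4e-05). The same step was present outside the *Sim1* nuclei, with 222, 312, 2239 and 3071 CPM in the other glutamatergic nuclei and 169, 442, 2040 and 3740 CPM in oligodendrocyte nuclei of the same libraries, those without *Syt1* and *Snap25*, of which Sham 1 had 3. *mt-Atp8*, a mitochondrial gene that overlaps *mt-Atp6*, was at 98.3 and 57.3 against 263 and 406 CPM (-2.39 ± 0.32), and again the other glutamatergic nuclei were alike at 116, 67.9, 322 and 415 CPM.

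*Pomc* was at 16.4 and 16.1 CPM in DOCA-salt and 95.8 and 123 CPM in Sham (-2.77 ± 0.33, adjusted p = 0.000999), and a single nucleus gave 43.3% of its UMIs in Sham 1. With 1 or more *Sim1* UMIs its direction turned to 0.75 with no call. *Vip* was at 0 and 1.51 CPM against 26.6 and 21.9 CPM, from 5 and 4 nuclei of the Sham pools. In each a single nucleus gave most of these UMIs, 80% and 64.3%, and without it the Sham levels were 5.43 and 8.05 CPM. *Vip* was as unequal in the other glutamatergic nuclei (0.115, 1.78, 32.6 and 16.3 CPM). *Slc24a5*, an exchanger of sodium and calcium, was at 49.2 and 77.9 CPM against 18.1 and 18.7 CPM (1.95 ± 0.34, adjusted p = 0.0393), beside 75.6, 71.2, 19.8 and 23.7 CPM in the other glutamatergic nuclei. Its call was lost without doublets, with RLE factors, by DESeq2, without the *Oxt* and *Avp* limit, with 3 or more *Sim1* UMIs and without DOCA-salt 2, Sham 1 or Sham 2. The calls of *Vip* and *Pmch* were lost in the first 4 of these settings as well, that of *Pvalb* in the second to the fourth, and that of *mt-Atp8* without doublets. With 1 or more *Sim1* UMIs 4 of the 7 calls were kept, and with 3 or more 2 were kept. Leaving out a Sham pool lost other calls beside that of *Slc24a5*. By these levels *Bc1*, *mt-Atp8* and *Slc24a5* split the pools of the treatments in nuclei without *Sim1* as well, while *Pomc* did not, at 408, 50.9, 209 and 323 CPM. *Vip* split the pools in nuclei without *Sim1*, while in *Sim1* nuclei the 0 UMIs of DOCA-salt 1 left its split unresolved.

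*Pvalb* was at 0 and 204 CPM in DOCA-salt and 13.8 and 4.69 CPM in Sham (3.89, adjusted p = 0.0332). *Pmch* was at 0 and 2044 CPM against 17.0 and 6.25 CPM (6.44, adjusted p = 0.0393). The 0 UMIs of both genes in DOCA-salt 1 allow up to 24.6 CPM, so that pool is not resolved from Sham. In DOCA-salt 2 a single *Sim1* nucleus gave 45.0% of the *Pmch* UMIs, and oligodendrocyte nuclei of that library held 1106 CPM. How much of these levels is RNA from other cells was not tested.

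**Figure D5:**
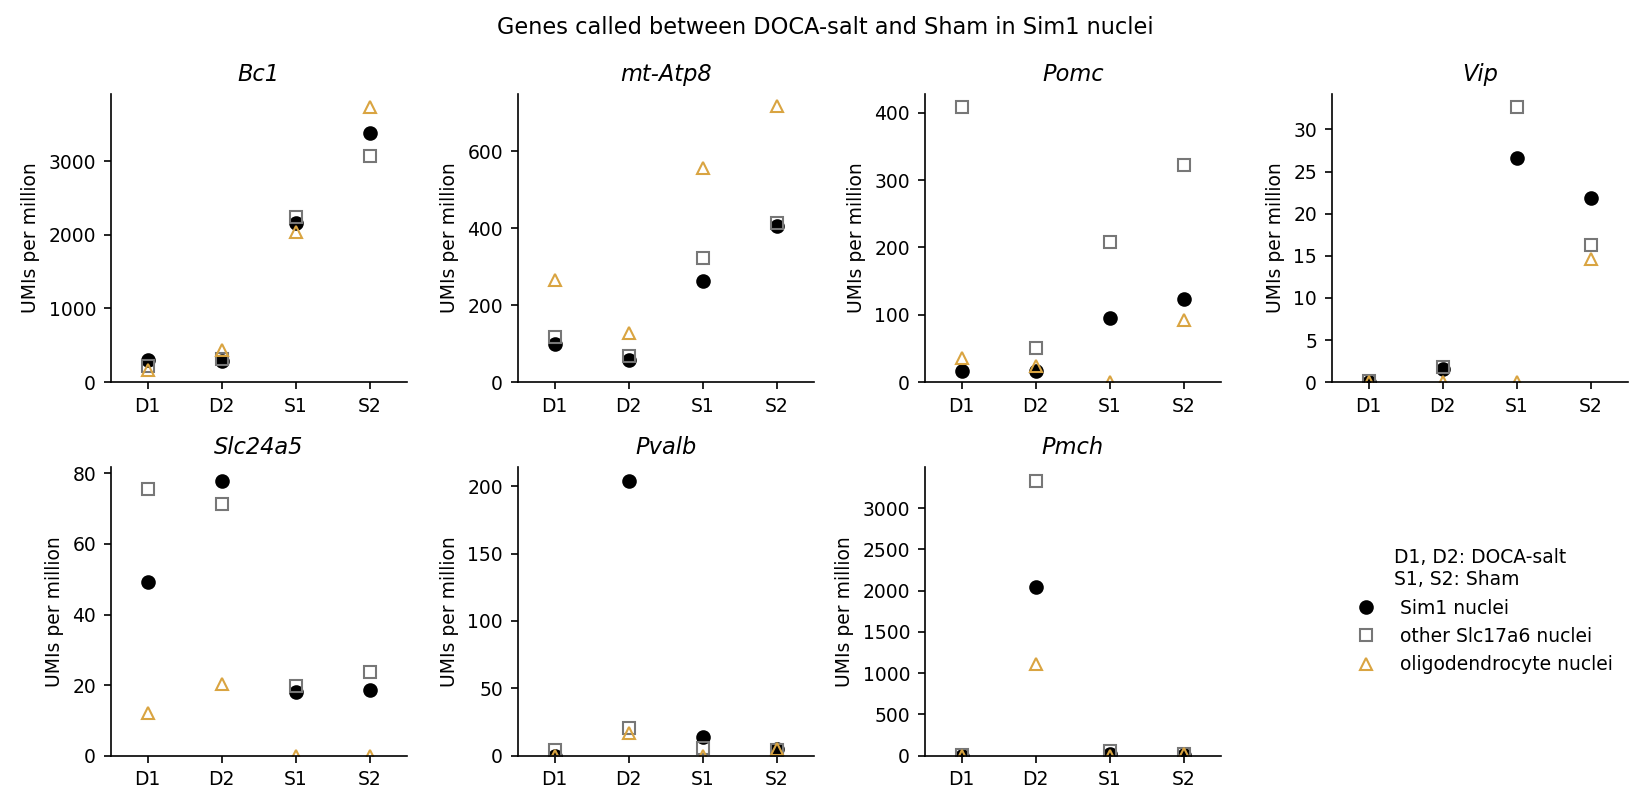
Summed level in CPM (vertical axes) of the 7 genes called between treatments in *Sim1* nuclei (black circles), with the other glutamatergic nuclei (gray squares) and oligodendrocyte nuclei (yellow triangles) of the same library (D1 and D2, DOCA-salt; S1 and S2, Sham). *Bc1* stood near 300 in D1 and D2 (303 and 289) and at 2166 and 3377 in S1 and S2 in *Sim1* nuclei and was as unequal in the other populations, while *Pvalb* was high in the *Sim1* nuclei of D2 alone.

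Beyond *Pomc*, *Vip* and *Pmch* no listed peptide was called between treatments (3 of 18 tested, or 16.67%, against 0.0716% of all genes). *Trh* had a log2 fold change of -0.36 with an adjusted p of 0.872. None of the 8 lineage regulators, 21 glutamate receptors, 15 GABA receptors or 29 voltage-gated channels tested passed. Nor did any of the 10 steroid genes, 19 genes of salt and chloride handling, 3 renin-angiotensin genes or 3 immediate early genes. Only 0.0716% of all genes passed, so the absence of calls says little about lists of this size. The list medians lay between -0.68 (lineage regulators) and 0.19 (renin-angiotensin genes). *Ebf1* was at 8.20 and 38.7 CPM in DOCA-salt and 103 and 81.2 CPM in Sham (-1.44, adjusted p = 0.149), and *Nr3c2* at 16.4 and 11.6 against 24.5 and 18.7 CPM (-0.89, adjusted p = 0.518).

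The count of calls rested on single pools. Without DOCA-salt 1, whose *Sim1* nuclei stood apart, 711 genes passed, without DOCA-salt 2 95, and without Sham 2 only 1, each with a lone pool assumed to vary like the others. Among nuclei with an *Otp* UMI and without DOCA-salt 1, 484 genes passed, all 7 included.

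Whether the treatment difference itself was unlike that of the other glutamatergic nuclei was tested by the interaction of population and treatment. Of 14576 genes 7 (0.0480%) passed. *Pvalb*, *Rasgrp1*, *Itih3* and *Pcp4* (0.0274%) had a higher and *Ebf1*, *Cbln2* and *Hbb-bs* (0.0206%) a lower DOCA-salt effect in *Sim1* nuclei. *Bc1*, *mt-Atp8*, *Pomc*, *Vip*, *Slc24a5* and *Pmch* were not among them. The direction of *Pvalb*, *Rasgrp1* and *Hbb-bs* turned without DOCA-salt 2, and that of *Hbb-bs* also without Sham 1. *Ebf1* was at 4.07, 24.4, 21.6 and 13.2 CPM in the other glutamatergic nuclei (difference of effects -1.72 ± 0.30, adjusted p = 0.000146), where its pools overlapped, while in *Sim1* nuclei both DOCA-salt pools lay below both Sham pools. Without DOCA-salt 1 the interaction called 21 genes, without DOCA-salt 2 136, without Sham 1 3 and without Sham 2 none. DESeq2 called no gene (62 at an unadjusted p under 0.05), and so none of the 7. Of the 7 genes 5 were among those called without DOCA-salt 1 (not *Itih3* and *Pcp4*), 2 without DOCA-salt 2 (*Itih3* and *Pcp4*) and none without Sham 1 or Sham 2.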

How the data were processed

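Single nuclei of 4 pools (2 DOCA-salt, 2 Sham) were profiled by droplet sequencing. The authors deposited UMI counts per gene and barcode, made per the labels with Cell Ranger 3.0.1 and mm10. Barcodes with more than 200 and under 7000 genes, under 25000 UMIs and under 15% mitochondrial UMIs were kept. No deposited annotation was used. The *Sim1* nuclei and all 25 gene lists (375 distinct genes) were chosen with earlier results of these data known.

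Counts were summed per library and population and tested with edgeR 4.0.16 (quasi-likelihood, TMM, filterByExpr, Benjamini-Hochberg over all genes tested, threshold 0.05), for *Sim1* against other glutamatergic nuclei with the library as a block and for DOCA-salt against Sham without one. Genes named are those of the lists and the 10 called genes of largest change in each direction with the same sign in all 4 libraries, or with pools apart, and a few of them are not reported here. P-values for DOCA-salt against Sham measure the spread between pools only. Those of fits with the library as a block measure how the difference between the populations varies over libraries. Shares were tested by exact permutation in SciPy 1.17.1. Doublets were scored with Scrublet (scanpy 1.11.5) at an assumed rate of 0.8% per 1000 nuclei and were kept. DESeq2 1.42.0, other gates, depth windows, thinning and leaving out each pool were alternatives. The tests were also run on counts simulated from edgeR's own fits, with 200 genes changed by 2 on the log2 scale. Of those tested, 90.8% were recovered for *Sim1* against other glutamatergic nuclei, 89.8% between treatments and 68% for the interaction. Such counts follow the model of the test, so this check does not cover the dependence of the calls on single pools.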

Additional observations from a re-analysis of the deposited data

Results flagged for a closer look

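For 7 genes the DOCA-salt effect in *Sim1* nuclei differed from that in the other glutamatergic nuclei of the same pools, by the interaction test of edgeR. Differences of effects are on the log2 scale, and levels are given for DOCA-salt 1, DOCA-salt 2, Sham 1 and Sham 2.

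*Ebf1* (-1.717, adjusted p = 0.000146) was at 8.20, 38.7, 103 and 81.2 CPM in *Sim1* nuclei. *Cbln2* (-1.127, adjusted p = 0.0115) was at 32.8, 53.8, 100 and 209 CPM in *Sim1* nuclei and at 34.3, 44.6, 54.3 and 59.0 CPM in the others. For both genes the DOCA-salt pools lay below the Sham pools in *Sim1* nuclei.

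*Pvalb* (2.283, adjusted p = 0.000214) was high in the *Sim1* nuclei of DOCA-salt 2 alone. *Rasgrp1*, an activator of Ras (1.571, adjusted p = 0.00405), was at 41.0, 38.7, 11.7 and 50.0 CPM in *Sim1* nuclei and at 75.7, 17.9, 38.2 and 61.5 CPM in the others, with overlapping pools in both.

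*Itih3*, an inhibitor heavy chain that binds hyaluronan (1.005, adjusted p = 0.00405), was at 500, 233, 132 and 172 CPM in *Sim1* nuclei and at 168, 270, 233 and 244 CPM in the others. *Pcp4*, a calmodulin regulator (0.8826, adjusted p = 0.00665), was at 1131, 449, 601 and 400 CPM against 331, 411, 584 and 473 CPM, highest in the 13 nuclei of DOCA-salt 1. *Hbb-bs*, a globin gene of red blood cells (-1.07, adjusted p = 0.0167), was at 65.6, 58.3, 340 and 67.2 CPM against 31.2, 88.6, 124 and 123 CPM, and Sham 1 stood apart. None of the 7 was called by DESeq2, without Sham 1 or without Sham 2. Without DOCA-salt 1 the values of *Itih3* and *Pcp4* were 0.48 and 0.23, and the calls were lost. Without DOCA-salt 2 those of *Ebf1* and *Cbln2* were -1.45 and -1.51 with no call. The direction of *Pvalb*, *Rasgrp1* and *Hbb-bs* turned without DOCA-salt 2, and that of *Hbb-bs* also without Sham 1. With likely doublets removed, 5 of the 7 calls were kept and 2 were lost.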

How the results depend on the processing

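Against the 395 genes called in *Sim1* against other glutamatergic nuclei, 208 were called with 3 or more *Sim1* UMIs (174 of them among the 395), 69 after thinning (68), 77 by DESeq2 (77), 4 without the library block (4), 178 without DOCA-salt 2 (146) and up to 493 without another pool (372, without DOCA-salt 1). Over 1446 refits of 86 named genes, 941 kept direction and call, 503 kept direction only and 2 reversed: *Foxb1* (-0.2685, nuclei with *Otp* without DOCA-salt 1, an alternative chosen after seeing the data) and *Hcrt* (0.09881, 1 or more *Sim1* UMIs). The 7 treatment calls became 17 with 1 or more *Sim1* UMIs, 2 with 3 or more, 3 without the *Oxt* and *Avp* limit, 2 without doublets, 3 with RLE factors, 59 without a filter, 3 by DESeq2, 484 in nuclei with *Otp* without DOCA-salt 1, and between 1 and 711 when a pool was left out. With the replicate number as a block 16 genes passed. The labels name no litter, batch or day shared by pools of the same number, and with 2 pools a treatment their deviations give a single correlation (-0.0576), so the block is given as a count only. *Pomc* reversed with 1 or more *Sim1* UMIs (0.7474) and *Pmch* without DOCA-salt 2 (-5.841, up to 7.36 over the pools left out). The 7 interaction calls became 0 by DESeq2 (62 at an unadjusted p under 0.05) and between 0 and 136 when a pool was left out, where edgeR without Sham 2 gave 0 (165 at an unadjusted p under 0.05). Without DOCA-salt 2 *Pvalb* (-9.041, otherwise up to 2.955), *Rasgrp1* (-0.1356, otherwise up to 2.348) and *Hbb-bs* (0.3031, otherwise down to -1.761) reversed, and *Hbb-bs* also without Sham 1 (0.537). The cause of these reversals was not tested. With doublets removed 7 genes passed the interaction test, of which 5 were among the 7 main calls. The difference in the share of *Sim1* nuclei stayed negative, from -4.85 to -0.0132 percentage points over gates and denominators and from -2.31 to -0.0832 when a pool was left out. *Otp* and *Ebf3* nuclei were not compared, since no library held 10 of each. With 13 *Sim1* nuclei, DOCA-salt 1 resolves no gene below 24.6 CPM.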
